A study of Mus musculus with 4 samples.

Results

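Cytosolic ribosomal protein genes were described in fetal mouse brain after maternal ethanol. They were taken by name: probe sets of the array (groups of probes read out as 1 value) whose single gene symbol is Rpl or Rps followed by a digit, or Rplp0, Rplp1, Rplp2 or Rpsa, without the Rps6k kinases and pseudogenes. The rule gave 63 genes on 219 probe sets, of 19938 genes with a single-symbol probe set. For each gene the probe set with the highest mean over the arrays was used. A gene was kept if its mean was at least 7.11 on the log2 scale, the median of the means of all probe sets, which 58 of the 63 genes and 11013 genes in all passed. A further 20 genes that bear such a name, among them Rpl3, Rpl11, Rps27 and Rpl39, lie only on probe sets that carry several symbols and were not analysed here.

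Of the 58 kept genes, 30 encode proteins of the large subunit, 21 proteins of the small subunit and 3 proteins of the stalk. Rpl7l1, Rps27l and Rps4l are paralogs of other ribosomal protein genes, and Rps19bp1 shares only the name, since it encodes a binding partner of the Rps19 protein. The deposited values are on a log2 scale, so a difference of 0.26 is a change of 1.2-fold.

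All mice were C57BL/6J. Dams received either ethanol (a daily 2.9 g per kg of body weight, from a 15% solution by volume) or phosphate-buffered saline (PBS). Dosing was intragastric and lasted 5 days, embryonic days 8 through 12. Forebrain and hippocampus were collected on embryonic day 18, from litters delivered by Caesarean section, and each combination of tissue and treatment gave 1 of the 4 arrays. With 1 array per group, a difference between a pair of arrays has no replicate check and no test. The labels do not say whether RNA of several fetuses was pooled, which litters were used or whether both tissues came from the same fetuses, so ethanol cannot be told apart from a difference between litters or hybridisations.

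Each ribosome is a large and a small subunit, in which one copy of nearly every ribosomal protein sits on ribosomal RNA. The small subunit reads the messenger RNA, the large subunit joins amino acids, and the stalk of Rplp0 with Rplp1 and Rplp2 recruits elongation factors. Many messenger RNAs of these proteins begin with a C followed by a run of pyrimidines (C or T), the terminal oligopyrimidine tract, through which mTOR signalling sets how strongly they are translated. Dividing and growing cells need many new ribosomes.

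Promoters of 4 of the genes are shown, with any run of pyrimidines at the start of transcription marked. Their ethanol differences had opposite signs in the tissues for Rpl14 and Rpsa and the same sign for Rps9. For Rps18 the signs were opposite as deposited but not after quantile normalization. In hippocampus the difference was -0.28 for Rps9, -0.14 for Rps18, -0.23 for Rpl14 and 0.16 for Rpsa, and in forebrain it was -0.17, 0.0049, 0.22 and -0.15 in the same order. The sequences are from RefSeq on build GRCm38.p6 and run from 90 bases before the annotated start to 30 bases after it, and capitals mark a run of at least 8 pyrimidines on the printed strand that starts with C and reaches into the 25 bases on either side of the start.
Rps9, chr7:3703951-3704070, plus strand: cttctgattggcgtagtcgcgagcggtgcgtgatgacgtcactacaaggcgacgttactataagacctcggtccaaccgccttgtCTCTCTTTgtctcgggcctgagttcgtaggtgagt
Rps18, chr17:33955636-33955755, minus strand: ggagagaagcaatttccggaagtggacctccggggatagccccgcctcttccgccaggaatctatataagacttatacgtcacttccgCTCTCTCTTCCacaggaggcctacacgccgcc
Rpl14, chr9:120571427-120571546, plus strand: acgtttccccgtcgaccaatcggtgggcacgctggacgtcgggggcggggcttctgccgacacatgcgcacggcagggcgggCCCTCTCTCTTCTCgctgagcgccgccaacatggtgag
Rpsa, chr9:120127676-120127795, plus strand: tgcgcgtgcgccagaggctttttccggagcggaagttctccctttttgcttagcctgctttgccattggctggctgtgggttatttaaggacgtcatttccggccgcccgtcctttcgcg
The run stretched over 8 bases in Rps9, 11 in Rps18 and 14 in Rpl14, and the stretch around the annotated Rpsa start had none by this search.

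A promoter was found by symbol for 51 of the 63 genes, and 26 of them (51.0%) had the pyrimidine run, against 21.8% of the 27025 genes in the promoter table and 23.2% of the 8827 of those that were kept. The letters CCGGAAG, the core bound by ETS-family factors, occurred on either strand in 19 of the 51 promoters (37.3%), against 9.93% of all genes and 20.1% of kept ones. TATAAA, also on either strand, was in 6 promoters (11.8%), against 15.7% of all genes and 8.13% of kept ones. These letters are a description of the 300 bases in the table, not of bound factors, and a gene with several promoters there (8 of the 51) was counted if any held them.
Genes with and without the pyrimidine run had medians close to each other. After ethanol in hippocampus, the median difference was 0 for the 23 kept genes with the run and -0.01 for the 23 with a promoter that lacks it. Between tissues after PBS both medians were 0.08.

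The arrays were close in scale, with medians over all 35557 probe sets from 7.11 to 7.13, but the hippocampus array after ethanol stood apart among kept genes, where its median was 8.57 against 8.66 to 8.68 on the others. Because of this offset, counts and medians are also given after centring each array on its kept-gene median and after quantile normalization. Of the 7 kept hippocampal field markers 5 were higher in hippocampus than in forebrain after PBS (median 0.25) and 2 after ethanol (median -0.13). Of all kept genes 52.4% and 30.4% were higher. After centring 3 of the 7 were higher after ethanol (median -0.04). Zbtb20 was higher in hippocampus under both treatments, by 0.35 and 0.23. Lhx2 and Mpped1 were higher after PBS and lower after ethanol. Emx2 was 0.33 higher after PBS and 0.0013 higher after ethanol, and Prox1 was lower under both. The erythroid list had 1 kept gene, and 4 of its 5 measured genes lay below the filter value.

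Ribosomal protein genes were higher in hippocampus than in forebrain. After PBS, 51 of the 58 kept genes were higher in hippocampus and 7 were lower, with a median difference of 0.09 or 6.17%, where 52.4% of all kept genes were higher and their median difference was 0.01. After ethanol, 41 were higher and 17 lower, again with a median of 0.09, while 30.4% of all kept genes were higher and their median was -0.06. The differences were small: after PBS they ran from -0.18 to 0.26 and after ethanol from -0.18 to 0.32.
In 34 of the 58 genes both hippocampus arrays lay above both forebrain arrays, which held for 13.4% of all kept genes. In 2 genes, Rplp1 and Rps15a, both hippocampus arrays lay below, which held for 28.9% of all kept genes. A second probe set of Rplp1 was 0.0028 higher in hippocampus after ethanol. The hippocampus array after PBS held the highest value of 30 genes and the hippocampus array after ethanol that of 22. The lowest value was on the forebrain array after ethanol in 28 genes, on the forebrain array after PBS in 14 and on the hippocampus array after ethanol in 14.

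**Figure D1:**
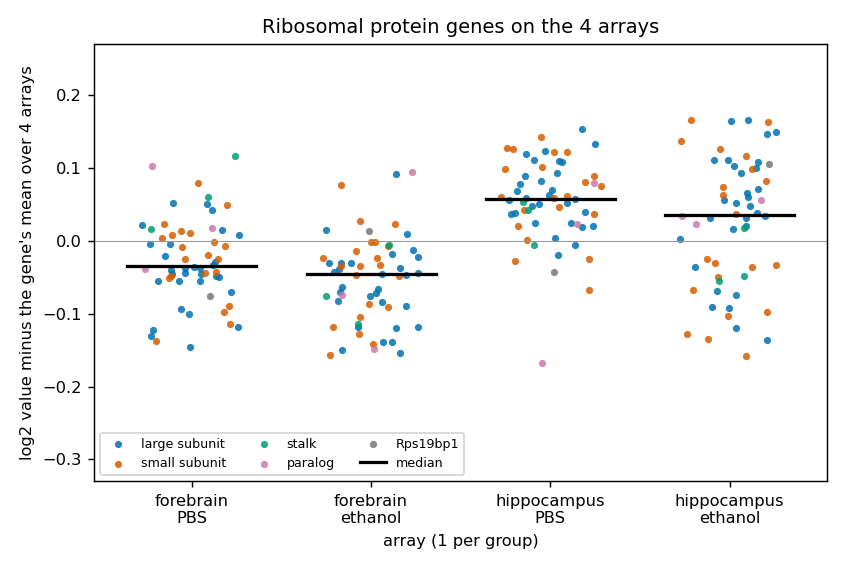
Each point is 1 of the 58 kept ribosomal protein genes on 1 array, drawn as its log2 value minus that gene's mean over the 4 arrays and coloured by subunit, and black bars are medians. Points lie mostly above 0 on the hippocampus arrays and below 0 on the forebrain arrays, with a wider spread on the hippocampus array after ethanol.

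Other genes with strong signal had smaller medians. Among 373 other kept genes at or above the ribosomal protein genes' median level of 10.92, 60.6% were higher in hippocampus after PBS with a median of 0.03, and 40.8% after ethanol with a median of -0.02. The medians of the ribosomal protein genes stayed above 0 under the other scalings. After centring, 52 of 58 genes were higher in hippocampus after PBS and 52 after ethanol, with medians of 0.10 and 0.18. After quantile normalization 42 and 40 were higher, with medians of 0.06 and 0.05.

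Among large-subunit genes, Rpl29, Rpl7, Rpl23a and Rpl5 differed between tissues under both treatments. Rpl29, which encodes a small basic protein at the subunit surface, had values of 9.47 and 9.44 on the forebrain arrays after PBS and ethanol and of 9.70 and 9.76 on the hippocampus arrays. Rpl7 had values of 10.90 and 10.88 in forebrain and 11.11 and 11.11 in hippocampus. Rpl23a, whose protein lies by the exit of the peptide tunnel, read 11.56 and 11.60 in forebrain and 11.74 and 11.82 in hippocampus. In each of these genes the values of the tissues did not overlap, and the gap between tissues was wider than the gap between treatments. Rpl29 has a single probe set.
Rpl5 encodes a protein that carries the smallest ribosomal RNA into the large subunit and can bind the p53 regulator Mdm2. It stood at 11.81 and 11.80 in forebrain and at 11.96 and 11.94 in hippocampus, again without overlap. Rpl22, an RNA-binding protein at the outside of the subunit, was at 10.22 on both forebrain arrays, 10.43 on the hippocampus array after PBS and 10.24 on the one after ethanol. Its difference between tissues was thus 0.21 after PBS and 0.03 after ethanol.
Over the 30 large-subunit genes, 29 were higher in hippocampus after PBS and 24 after ethanol, and both hippocampus arrays were on top in 23. With quantile normalization 22 were higher under each treatment.

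Small-subunit genes were mostly higher in hippocampus after PBS and divided after ethanol. Of the 21 genes, 19 were higher in hippocampus after PBS, with a median of 0.08, and 12 after ethanol, with a median of 0.02. Both hippocampus arrays lay on top in 9 of them. A test of the difference between the subunits was not made, and the centred values narrow it, with 20 and 18 of the 21 higher. Quantile normalization left 12 of the 21 higher after ethanol (median 0.01), against 22 of the 30 large-subunit genes (median 0.08).
Rps3a1, which encodes a protein where initiation factors dock, had values of 9.37 and 9.38 in forebrain after PBS and ethanol and 9.63 and 9.64 in hippocampus. Its tissue difference was 0.26 after PBS and 0.27 after ethanol, without overlap, on a single probe set. Rps4x, an X-linked gene of the small subunit, was at 11.01 and 10.95 in forebrain and at 11.14 and 11.13 in hippocampus. Rps15a went the other way, with 10.72 and 10.77 in forebrain and 10.63 and 10.66 in hippocampus.

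Few genes passed 1.2-fold between tissues. After PBS these were 2 genes in the upward direction, Rps3a1 and Rpl14, where 3.16% of all kept genes passed, and 0 genes in the downward direction, where 6.46% passed. After ethanol 5 genes were at least 1.2-fold higher in hippocampus, Rpsa, Rpl29, Rpl26, Rps19 and Rps3a1, where 2.15% of all kept genes passed, and 0 genes were lower by that much, where 9.85% passed. None of the 58 reached 1.5-fold. Both genes after PBS and 4 of the 5 after ethanol, all but Rpsa, have a single probe set. Among the 39 genes with several probe sets, 0 passed after PBS and 1 after ethanol. With quantile normalization 0 genes were 1.2-fold higher after PBS, and after centring 15 were after ethanol.
Rpl26, which also binds the messenger RNA of p53, was one of the genes past 1.2-fold after ethanol alone. It had values of 8.10 and 7.99 in forebrain and 8.16 and 8.28 in hippocampus, a tissue difference of 0.06 after PBS and 0.29 after ethanol. Across the 58 genes the tissue differences under PBS and under ethanol had a Pearson correlation of 0.145, against 0.440 over all kept genes. Genes are not replicates, and both differences of a gene come from the same probe set. Still, 37 genes were higher in hippocampus under both treatments and 3 lower under both.

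**Figure D2:**
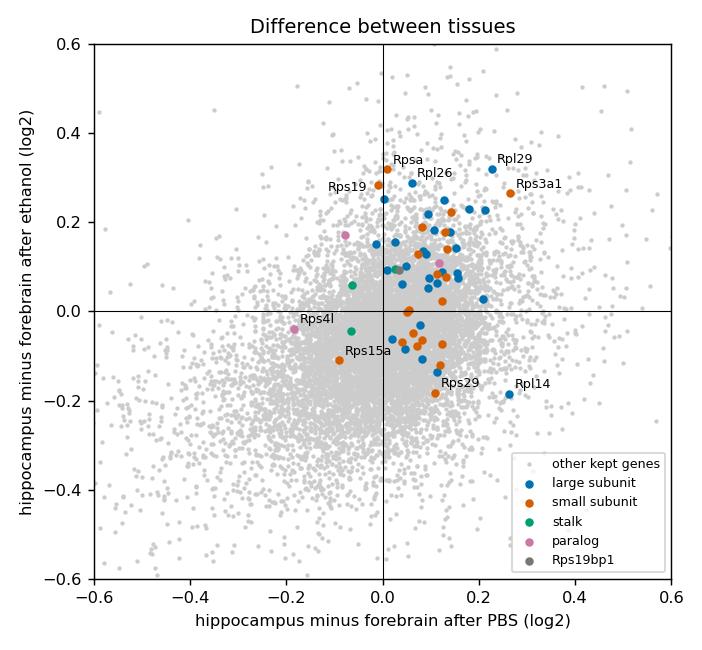
Hippocampus minus forebrain on the log2 scale after PBS (horizontal) and after ethanol (vertical) for the ribosomal protein genes, coloured by subunit, over the other kept genes in grey; 173 kept genes lie outside the axes, which end at 0.6. Most coloured points lie to the right of 0, and 37 of 58 lie to the right of 0 and above it.

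Over both treatments, limma was fitted to all 11013 kept genes with tissue and treatment as terms. It leaves 1 residual degree of freedom, so the p-values treat any treatment-by-tissue interaction as error and measure only the spread between these arrays. For tissue, 0 of the 58 genes passed an adjusted p of 0.05, where 1.13% of all kept genes did (12 genes higher and 112 lower in hippocampus). At an unadjusted p under 0.05, 19 of the 58 were higher and 0 lower, against 360 higher and 1306 lower of all 11013.
The lowest adjusted p-values by limma belonged to large-subunit genes. Rpl23a differed by 0.20 (SE 0.0421, adjusted p 0.0821), Rpl21 by 0.16 (SE 0.0336, adjusted p 0.0871), Rpl7 by 0.22 (SE 0.0492, adjusted p 0.0985) and Rpl29 by 0.27 (SE 0.0687, adjusted p 0.125). Rps3a1 came next with 0.26 (SE 0.0676, adjusted p 0.129). With a stricter expression filter Rpl23a passed (adjusted p 0.0462), and with quantile normalization Rpl29 and Rps3a1 passed (lowest adjusted p 0.0281).

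Markers of other cells and of dividing cells also differed between the tissues, in both directions. All 7 kept proliferation markers, such as Mki67 and Top2a, were higher in hippocampus under both treatments, with medians of 0.28 after PBS and 0.19 after ethanol. Their summed linear level was 3401 and 3249 in forebrain after PBS and ethanol and 4279 and 3693 in hippocampus. The 5 kept choroid plexus markers were all higher after PBS (median 0.57) and 3 of them after ethanol (median 0.14). Together with Kl, which lay below the filter value, their summed level was 4799 and 5187 in forebrain and 7045 and 6084 in hippocampus.
The 6 kept meningeal fibroblast markers were lower in hippocampus, all 6 under each treatment, with medians of -1.07 and -0.57. Together with Lum, which lay below the filter value, their summed level was 3565 and 3177 in forebrain and 1640 and 2131 in hippocampus. The 5 endothelial markers were also all lower under each treatment, with medians of -0.23 and -0.25 and summed levels of 1915 and 1766 in forebrain and 1533 and 1519 in hippocampus. The 3 kept microglia markers were lower under each treatment, with medians of -0.12 and -0.13, though 1 was higher after ethanol once arrays were centred. The 5 astrocyte markers were all lower after PBS (median -0.14; 4 of them after centring), and 3 of them were higher after ethanol (median 0.03). The 6 radial glia and progenitor markers had medians of 0.12 and 0.03. The 5 neuron markers had medians of -0.01 and -0.06, with 2 higher in hippocampus after PBS and 0 after ethanol, or 4 and 3 after centring. The part of these in the ribosomal protein difference was not tested, and in bulk tissue fewer cells of a type and less RNA per cell cannot be told apart.

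In hippocampus, ethanol was followed by differences in both directions that were centred near 0. As deposited, 24 of the 58 genes were higher after ethanol, 33 lower and 1, Rps27l, equal. The median was -0.01, where 30.7% of all kept genes were higher and their median was -0.08. The 373 other kept genes at their level were closer to them, with 41.0% higher and a median of -0.02. The direction rests on the scaling: after centring 42 genes were higher with a median of 0.09, where 56.4% of all kept genes were higher, and after quantile normalization 22 were higher with a median of -0.04.
Across the 3 scalings 35 genes kept one sign, 19 of them higher and 16 lower. At 1.2-fold, 0 genes were higher, where 4.49% of all kept genes were, and 2 genes were lower, Rps29 and Rps9, where 11.2% of all kept genes were. These counts became 3 and 0 after centring and 2 and 1 after quantile normalization. The spread of the 58 differences was also narrower than that of all kept genes, with an SD of 0.125 against 0.187, and close to the SD of 0.133 of the other genes at their level.

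The lower end of the hippocampus differences held genes of both subunits. Rps29, a small zinc-binding protein, read 10.53 with PBS and 10.25 with ethanol in hippocampus, which differ by -0.28. In forebrain it read 10.42 and 10.43. The ethanol hippocampus value was the lowest of the 4, while the forebrain pair lay close together.
Rps9, which binds ribosomal RNA early in assembly, had values of 10.65 and 10.37 in hippocampus and of 10.59 and 10.42 in forebrain. It was thus lower after ethanol in both tissues, by 0.28 and 0.17 on the log2 scale, and the ethanol arrays did not overlap the PBS arrays. The other Rps9 probe set gave -0.22 in hippocampus and -0.05 in forebrain, and there the hippocampus value after ethanol and the forebrain value after PBS, at 10.37 and 10.36, overlapped. Rpl36 was also lower after ethanol in both tissues, with 11.01 and 10.75 in hippocampus and 10.93 and 10.86 in forebrain.
Rps13 had values of 9.22 and 8.96 in hippocampus and 9.10 and 9.09 in forebrain. Rpl30, a protein at the bridge between the subunits, was at 9.53 and 9.30 in hippocampus and at 9.42 and 9.44 in forebrain. In both genes the hippocampus array after PBS was the highest and the one after ethanol the lowest, with forebrain between. All of these differences kept their sign under centring, at -0.18 for Rps29, -0.18 for Rps9, -0.16 for Rpl36, -0.16 for Rps13 and -0.13 for Rpl30.

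At the upper end stood Rps4l, Rps19, Rpl21, Rpsa and Rps2. Rps19, the gene most often mutated in human Diamond-Blackfan anaemia, had values of 8.52 after PBS and 8.72 after ethanol in hippocampus and of 8.53 and 8.43 in forebrain. Its ethanol hippocampus value was the highest of the 4 and its ethanol forebrain value the lowest. Rpsa, which is both a small-subunit protein and the laminin receptor precursor, was likewise highest on the ethanol array of hippocampus and lowest on that of forebrain, with 11.14 and 11.31 in hippocampus and 11.13 and 10.99 in forebrain.
The difference of Rpsa was 0.16 in hippocampus and -0.15 in forebrain, and these signs held under centring and quantile normalization. Rpl21, a large-subunit protein, was at 12.46 and 12.63 in hippocampus and at 12.32 and 12.46 in forebrain. Rps2, which lies where messenger RNA enters the small subunit, was at 12.25 and 12.40 in hippocampus and 12.18 and 12.28 in forebrain. Rpl21 and Rps2 were higher after ethanol in both tissues and under all 3 scalings, though for Rpl21 the forebrain value after ethanol only met the hippocampus value after PBS, and for Rps2 1 of the 3 probe sets was lower after ethanol in each tissue.

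**Figure D3:**
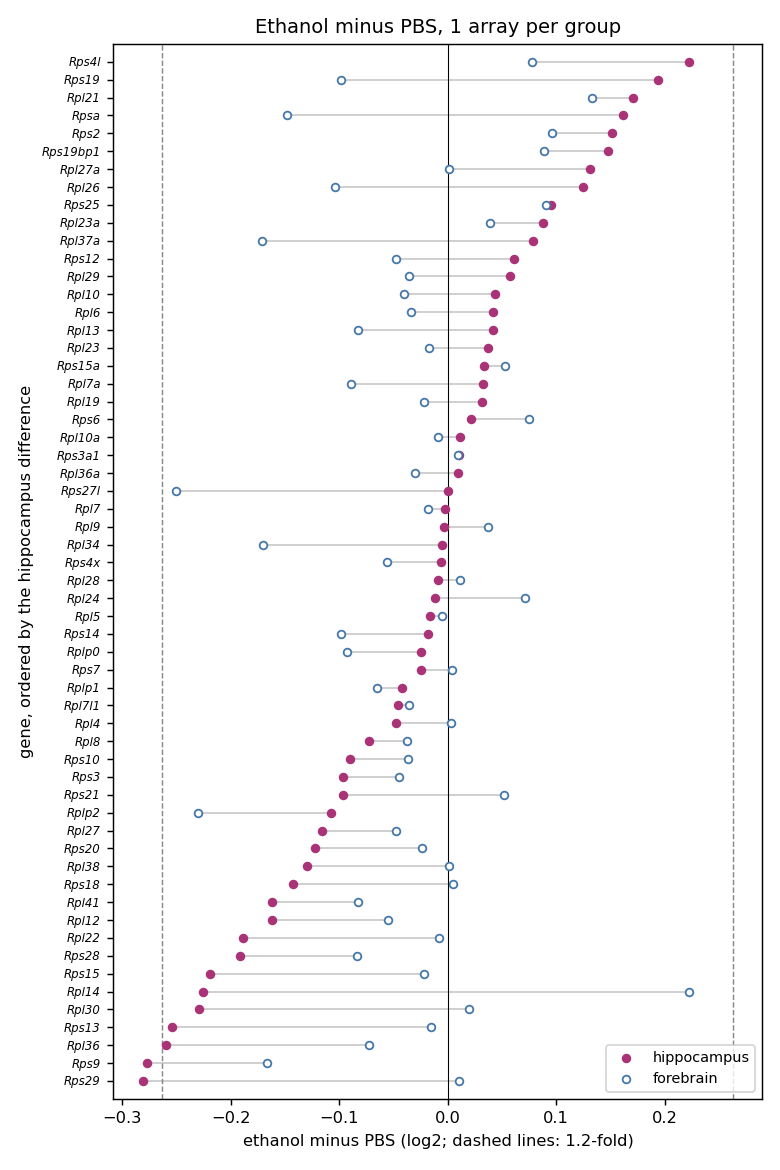
Ethanol minus PBS on the log2 scale for each of the 58 kept ribosomal protein genes, filled points for hippocampus and open points for forebrain, ordered by the hippocampus difference. Rps29 and Rps9 pass the dashed line of 1.2-fold in hippocampus and no open point passes it.

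In forebrain the ethanol differences spanned -0.25 to 0.22 and in hippocampus -0.28 to 0.22. Of the 58 genes 21 were higher and 37 lower after ethanol, with a median of -0.02, where 46.1% of all kept genes were higher and their median was -0.01. After centring 27 were higher and after quantile normalization 14. At 1.2-fold, 0 genes were higher, where 0.699% of all kept genes were, and 0 lower, where 0.508% were. The SD of the differences was 0.0840, against 0.0941 over all kept genes and 0.0643 over the 373 other genes at their level. Of those 373 genes 59.5% were higher after ethanol, with a median of 0.02.
The lowest differences in forebrain were those of Rps27l, Rplp2, Rpl37a, Rpl34 and Rps9. Rpl37a, a zinc-binding protein of the large subunit, had values of 10.33 and 10.16 in forebrain and 10.34 and 10.42 in hippocampus. Rpl34 had values of 8.60 and 8.43 in forebrain and 8.59 and 8.58 in hippocampus. In both genes the forebrain array after ethanol was the lowest and the other 3 lay above it.
The highest difference in forebrain was that of Rpl14, a large-subunit gene. Its values were 8.53 after PBS and 8.75 after ethanol in forebrain, and 8.80 and 8.57 in hippocampus, so that the difference was 0.22 in forebrain and -0.23 in hippocampus. The opposite signs held under all 3 scalings but rest on a single probe set. Rps25, used by many internal ribosome entry sites, was at 10.95 and 11.04 in forebrain and at 11.08 and 11.18 in hippocampus, 0.10 and 0.09 higher after ethanol in hippocampus and forebrain. These were the highest of its 6 probe sets in each tissue, which ran from -0.05 to 0.10 and from -0.03 to 0.09 with 4 of 6 higher in each, and quantile normalization took the forebrain difference to 0.0082.

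The stalk genes were lower after ethanol in both tissues as deposited, on the probe sets used. Rplp0 had values of 12.53 and 12.44 in forebrain after PBS and ethanol and of 12.56 and 12.53 in hippocampus. Rplp1 was at 11.88 and 11.81 in forebrain and at 11.81 and 11.77 in hippocampus. Rplp2 was at 8.02 and 7.79 in forebrain and at 7.96 and 7.85 in hippocampus.
The ethanol array was the lower of each pair, and the differences ran from -0.23 to -0.07 in forebrain and from -0.11 to -0.02 in hippocampus. In forebrain all 3 stayed lower under both other scalings, whereas in hippocampus 2 of the 3 were higher after centring. The direction in hippocampus also turned with the probe set: the second probe set of Rplp0 was 0.04 higher after ethanol and that of Rplp1 0.05 higher, while in forebrain these gave -0.04 and -0.02. Rplp2 has a single probe set.

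The Pearson correlation between hippocampus and forebrain ethanol differences over the 58 genes was 0.0916, against 0.321 over all kept genes, as a description across genes. By sign, 10 genes were higher in both tissues, 22 lower in both and 26 of opposite sign or equal in one. Both ethanol arrays lay below both PBS arrays in 11 genes, among them Rps9, Rpl36, Rpl41, Rps28 and Rplp2, which held for 28.9% of all kept genes. That count was 5 after centring and 19 after quantile normalization. Both lay above in 3 genes, Rps2, Rps4l and Rps19bp1, which held for 8.66% of all kept genes. Of the genes named here, Rps9, Rps28, Rps2 and Rps4l hold these places on the probe set used and not on every one.
The limma fit called 0 of the 58 genes for ethanol over both tissues, as it called 0% of all kept genes. At an unadjusted p under 0.05 it had 2 genes higher, Rpl21 and Rps2, and 3 lower, Rps9, Rpl41 and Rpl36, against 375 higher and 700 lower of all 11013. The lowest adjusted p among the genes was 0.510, shared by these genes, with Rpl21 at 0.15 (SE 0.0336) and Rps9 at -0.22 (SE 0.0588). The other filters and scalings, the mean of a gene's probe sets and the other forms of the fit that were run called none of them for ethanol.

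Several probe sets of a gene gave more than 1 reading of these small differences within an array. Of the 63 genes 39 had more than 1 probe set, but in 5 of these, Rpl23a, Rpl27, Rpl41, Rps12 and Rps28, some probe sets held equal values on every array, and such sets were counted as 1 reading. The 3 of Rpl41 were a single reading, so that 38 genes had several readings, 182 in all. After PBS all readings of a gene had the same sign of the tissue difference in 36 of the 38 genes, and after ethanol in 33. For ethanol against PBS this held in 26 genes in hippocampus and 21 in forebrain. The SD among readings of a gene had a median of 0.0388 for the ethanol difference in hippocampus, against an SD of 0.125 between genes. Probe sets of a gene carry the same symbol and can share sequence, so they are not replicates of a condition. Whether some of them read close copies of a gene was not tested, so their agreement does not show that a small difference is real.
All 4 Rps29 probe sets were lower after ethanol in hippocampus, from -0.30 to -0.28. All 9 of Rpl36 were lower, from -0.26 to -0.12, and all 9 of Rpl21 higher, from 0.16 to 0.25. The 5 probe sets of Rpsa were all higher in hippocampus, from 0.13 to 0.21, and all lower in forebrain, from -0.15 to -0.11. For tissue, all 11 distinct readings of Rpl23a (from 13 probe sets) and all 8 of Rps12 (from 14) were higher in hippocampus under both treatments.
Some genes had probe sets at odds with each other. In Rps14 the one used gave -0.02 for ethanol in hippocampus and the other gave 0.33. In Rps2 the probe sets ran from -0.07 to 0.15, with 2 of 3 higher, and in Rps4l one gave 0.22 and the other -0.07. Those of Rps12 ran from -0.09 to 0.20, with 11 of the 14 probe sets higher and 3 lower. Over all 207 distinct readings, 198 were higher in hippocampus after PBS and 160 after ethanol, while 103 were higher after ethanol in hippocampus and 92 in forebrain.

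**Figure D4:**
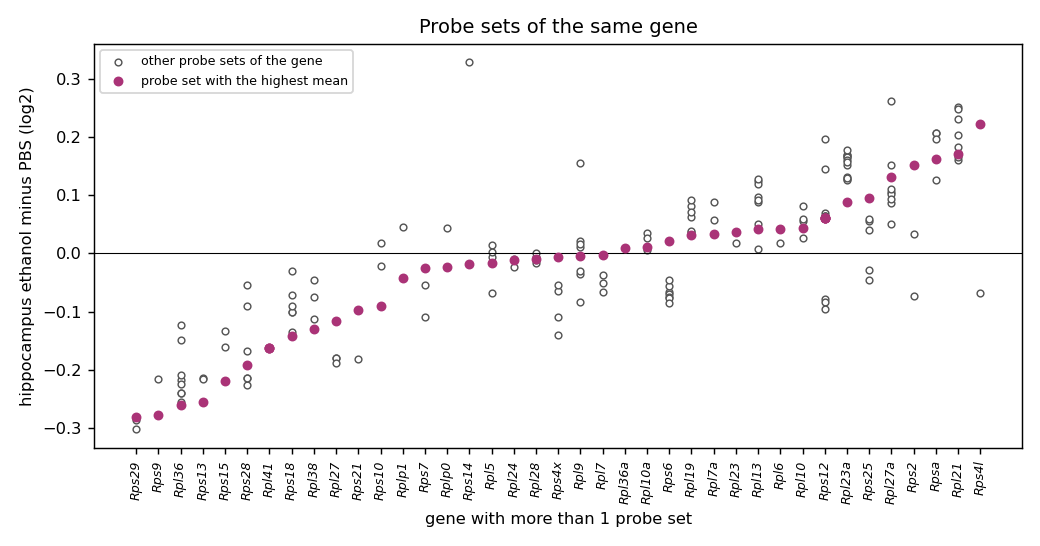
Ethanol minus PBS in hippocampus on the log2 scale for every probe set of the kept ribosomal protein genes that have more than 1, filled for the probe set with the highest mean and open for the others, with genes ordered by the filled point. Rps29, Rpl36, Rpsa and Rpl21 keep all points on one side of 0, and Rps14, Rps2 and Rps4l do not.

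Paralogs and genes of low signal were looked at one by one. Rps27l, a p53 target related to Rps27, had values of 7.55 and 7.29 in forebrain after PBS and ethanol and of 7.47 on both hippocampus arrays. It had the lowest ethanol difference in forebrain, -0.25. Rps4l, related to Rps4x, was at 8.0 and 8.08 in forebrain and at 7.81 and 8.04 in hippocampus, lowest in hippocampus after PBS. Its tissue difference after PBS, -0.18, was the lowest of the 58 and opposite to the 0.13 of Rps4x, but its second probe set gave 0.03, the sign of Rps4x.
Rpl7l1, related to Rpl7 and found in the nucleolus, was at 9.43 and 9.40 in forebrain and at 9.55 and 9.51 in hippocampus, on the same side as Rpl7. Rpl10, the parent of Rpl10l, had values of 12.59 and 12.55 in forebrain and 12.60 and 12.64 in hippocampus. Rpl36a was at 10.73 and 10.70 in forebrain and at 10.82 and 10.83 in hippocampus. In both genes both hippocampus arrays lay on top as deposited. The tissue differences were 0.01 after PBS and 0.09 after ethanol for Rpl10 and 0.09 and 0.13 for Rpl36a. Quantile normalization took those of Rpl10 to -0.03 and 0.0035, so its hippocampus arrays were then not both on top. Rps19bp1 was at 8.84 and 8.93 in forebrain and at 8.87 and 9.02 in hippocampus, so the ethanol arrays lay on top.
The 5 genes below the filter value were Rpl10l, Rpl39l, Rpl3l, Rpl32l and Rps23rg1. Rpl10l and Rpl39l, known for their expression in testis, had values of 5.82, 5.80, 6.40 and 5.93 and of 4.27, 4.43, 4.58 and 4.22 on the PBS and ethanol arrays of forebrain and then those of hippocampus. Rpl3l, known from heart and skeletal muscle, ran from 5.56 to 5.65. Rpl32l ran from 6.60 to 6.71 and Rps23rg1, a retrogene of Rps23, from 6.66 to 6.96. At these levels the Rpl10l differences of 0.58 between tissues after PBS and -0.47 with ethanol in hippocampus were not set against the kept genes.

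Genes that build ribosomes were mostly lower after ethanol in hippocampus, where 30.7% of all kept genes were higher and their median was -0.08. Of 66 kept biogenesis factors 55 were lower and 11 higher, the median was -0.13, and it stayed below 0 after centring (-0.03, with 29 higher). The nucleolar assembly factors Ebna1bp2, Nop10, Rpf1 and Noc3l differed by -0.42, -0.35, -0.32 and -0.30. Of 15 genes of RNA polymerase I and its factors, which transcribe ribosomal RNA, 13 were lower and 2 higher, the median was -0.15, or -0.05 after centring, and Polr1d and Polr1b differed by -0.29 and -0.28.
Between tissues after PBS both lists lay on the side of the ribosomal protein genes. Of the biogenesis factors 56 were higher in hippocampus, with a median of 0.08, and of the polymerase genes 11, with a median of 0.09. After ethanol 30 and 5 were higher as deposited, with medians of -0.01 and -0.03, and 53 and 11 after centring. Of all kept genes 52.4% were higher in hippocampus after PBS, 30.4% after ethanol as deposited and 57.6% after ethanol with centring. In forebrain, ethanol gave medians of -0.02 for both lists.

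Genes of translation itself had medians nearer 0 than the biogenesis factors. Of 35 initiation factors 11 (31.4%) were higher after ethanol in hippocampus, with a median of -0.06 that became 0.03 after centring, a share and a median close to the 30.7% and -0.08 of all kept genes. Eif2b2, Eif3e and Eif2b1 differed by -0.32, -0.25 and -0.23 and the helicase gene Eif4a2 by 0.20. Of 7 elongation factors, whose messenger RNAs carry the same kind of tract in several cases, 5 were higher, with a median of 0.03 that became -0.01 after quantile normalization. Eef1a2, the form of neurons and muscle, was 0.29 higher and Eef1d differed by -0.18.
Of 15 genes of the mTOR pathway and of tract-binding regulators 3 were higher, with a median of -0.10 that became 0.0038 after centring, and Tsc1, Mlst8, Tia1 and Rictor differed by -0.24, -0.24, -0.21 and -0.19. Of 76 mitochondrial ribosomal protein genes, which serve the separate ribosome of that organelle, 57 were lower and 19 higher after ethanol in hippocampus, and the median of -0.09 became 0.01 after centring. Among them Mrpl33 and Mrpl36 differed by -0.35 and -0.33. In none of these lists did limma call a gene for ethanol or for tissue at an adjusted p of 0.05. The lowest adjusted p for tissue was 0.0597, for Npm1, the gene of the nucleolar chaperone nucleophosmin, which differed by 0.30 (SE 0.0548) in favour of hippocampus.

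**Figure D5:**
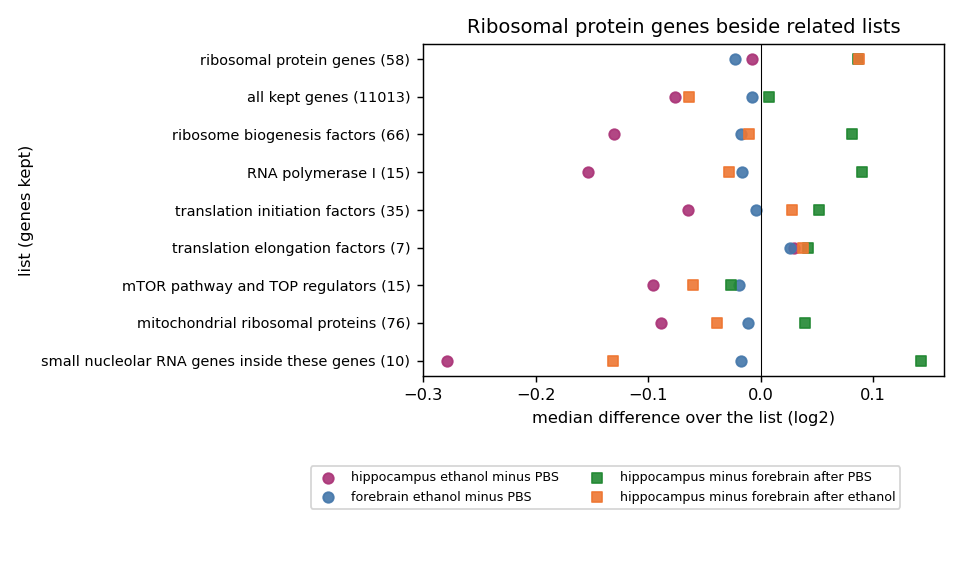
Median difference on the log2 scale over each list of kept genes, with its number of genes in brackets: circles for ethanol minus PBS in hippocampus and forebrain, squares for hippocampus minus forebrain after PBS and after ethanol. The ribosomal protein genes lie near 0 for ethanol and at 0.09 for both tissue differences, and the small nucleolar RNA genes lie at -0.28 for ethanol in hippocampus.

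Small nucleolar RNAs, which guide the chemical modification of ribosomal RNA, are often cut from introns of ribosomal protein genes. By RefSeq positions 39 such genes lie inside 20 of the 63 genes, 12 of them have a single-symbol probe set, and 10 of these were kept. All 10 were lower after ethanol in hippocampus, with a median of -0.28. Of all kept genes 30.7% were higher, with a median of -0.08. All 10 were lower after centring and after quantile normalization too, with medians of -0.18 and -0.22. There 56.4% and 45.1% of all kept genes were higher. Snora21 and Snord73a, below the filter value, differed by -0.43 and -0.04 as deposited. All 10 were higher in hippocampus than in forebrain after PBS, with a median of 0.14, where 52.4% of all kept genes were higher. Snora21 and Snord73a differed by 0.22 and -0.02 there. After ethanol 2 of the 10 were higher in hippocampus, where 30.4% of all kept genes were. The forebrain median with ethanol was -0.02.
The host genes did not share the size of the ethanol differences in hippocampus. Snora52, inside Rplp2, read 9.33 on the PBS array of hippocampus and 8.70 on the ethanol array, a difference of -0.63, where Rplp2 differed by -0.11. Snord16a, inside Rpl4, differed by -0.45 and Rpl4 by -0.05. Snora62, inside Rpsa, differed by -0.21 and Snora3, inside Rpl27a, by -0.21, where the hosts were 0.16 and 0.13 higher. In forebrain, Snora52 and Rplp2 each differed by -0.23 with ethanol. How far the labelling captured mature small RNAs or unspliced host RNA was not tested.

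Of the other lists, the pseudogene Rps19-ps3 was kept, with values of 7.94 and 7.93 in forebrain and 7.95 and 8.06 in hippocampus after PBS and ethanol. Its ethanol difference in hippocampus, 0.12, had the sign of the 0.19 of Rps19, and whether probes of such close copies cross-hybridise was not tested. Rpl14-ps1 lay below the filter value. Beside the ethanol differences in hippocampus, the 7 proliferation markers were all lower after ethanol (median -0.18), the 5 choroid plexus markers all lower (median -0.26), the 6 meningeal markers all higher (median 0.44) and the 5 astrocyte markers all higher (median 0.36), in each case under every scaling, with 5 meningeal markers kept under quantile normalization. Of the 7 kept hippocampal field markers 6 were lower, 3 of them by more than 1.2-fold (Mpped1 at -0.67, Lhx2 at -0.67 and Emx2 at -0.36). Their median of -0.09 became 0.0081 after centring, where 3 were lower. Together with Wnt8b, which lay below the filter value, their summed level was 7172 on the PBS array of hippocampus and 5434 on the ethanol array. Whether the hippocampus dissections match was not tested. The part of these markers in the differences of the ribosomal protein genes was not tested.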

How the data were processed

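Expression was measured on 4 Affymetrix mouse gene arrays, from Trizol-extracted total RNA, of which 6 ug went into biotinylated cRNA per the labels' protocols. The authors deposited log2 values, a scale inferred from their range of 1.58 to 13.96. MAS5 is named in the submitters' processing notes, with no version or settings, and how background and scaling were handled is not stated there. Probe sets were named through the platform annotation (21789 with 1 symbol, 1621 with several, 12147 with none, of 35557). The genes and all lists were chosen with earlier results of these data known.

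Within a pair of arrays log2 values were subtracted, with counts by sign and at 1.2-fold. Over all arrays limma 3.58.1 in R 4.3.3 was fitted (additive terms, eBayes with a trend, Benjamini-Hochberg over 11013 genes, threshold 0.05). The fit was run on simulated data in which ethanol changed 200 of 11013 genes by 1.5-fold or more, with equal noise in all. It recovered 100% of these and called 11 unchanged genes. Changes as small as those of the ribosomal protein genes were not simulated, so the run does not bear on them. Genes named were, by rule, the 5 highest and 5 lowest differences with ethanol in each tissue and between tissues after PBS, those called by limma, the stalk, the paralogs with their parents, Rpl5 and those below the filter, and up to 4 genes per related list; Rpl23a, Rpl26, Rps12, Rps14, Rps18, Rps28, Rpl41, Rpl4, Rpl27, Rpl27a, Npm1 and the small nucleolar RNAs were added after their values were seen. The RefSeq table used for small nucleolar RNAs gives no strand, so lying inside a host was judged by position alone. Alternatives were other filters, scalings, choices of probe set, fits and a 1.5-fold count. The remaining steps used Python 3.11.15 (numpy 2.4.6; pandas 2.3.3; matplotlib 3.10.9).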

Additional observations from a re-analysis of the deposited data

Results flagged for a closer look

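Choroid plexus and meningeal fibroblast markers had ethanol differences of opposite sign in the tissues. The median over choroid plexus markers was -0.26 in hippocampus and 0.08 in forebrain, so that the hippocampus difference minus the forebrain difference was -0.34. For meningeal fibroblast markers the medians were 0.44 and -0.18 and the gap was 0.62. With 1 array per group the difference between tissues was not tested. Neither list contains ribosomal protein genes, and no group holds enough arrays to look for an outlying one.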

How the results depend on the processing

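Centring each array on its kept-gene median moved most: the ethanol median in hippocampus went from -0.01 to 0.091 with 42 genes higher, the ethanol median over both tissues from -0.02 to 0.038, and the tissue median after ethanol from 0.09 to 0.18. Centring also gave 3 genes 1.2-fold higher and 0 lower after ethanol in hippocampus, 15 genes 1.2-fold higher in hippocampus after ethanol, and 5 genes with both ethanol arrays lowest. Quantile normalization gave 19 such genes, 2 genes 1.2-fold higher and 1 lower after ethanol in hippocampus, 0 genes 1.2-fold higher in hippocampus after PBS, and 2 genes called by limma for tissue. With no filter 4 genes were 1.2-fold lower after ethanol in hippocampus and 4 were 1.2-fold higher in hippocampus after PBS. The 75th percentile filter (8.62) gave 1 limma call for tissue and 3 genes 1.2-fold higher in hippocampus after ethanol. The mean of a gene's probe sets left 1 gene 1.2-fold lower after ethanol in hippocampus. The lowest probe set of each gene, an alternative chosen after seeing the data, gave 1 lower and 1 higher. At 1.5-fold 0 genes were counted in each of these comparisons. Leaving out any 1 array left no residual degree of freedom; the ethanol median then ranged from -0.02 to -0.01 and the tissue median was 0.09 in each case. Core subunits alone (chosen after seeing the data), eBayes without a trend and the fit without the other factor kept every value within these limits. No direct replicate was available, and the precision is limited by 4 arrays. No paired analysis was possible because the labels give no replicate numbers and each group has 1 array; the fit already compares ethanol within tissue through its tissue term.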
